A study of Mus musculus with 3 samples.

Results

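The insulin-like growth factor axis was followed here through 9 genes: the ligands Igf1 and Igf2, the receptor Igf1r, the adaptors Irs1 and Irs2, and the binding proteins Igfbp2, Igfbp3, Igfbp5 and Igfbp6. These are 9 of the 37310 genes, and of the 22380 protein-coding genes, in the annotation of the assembly. A peak of estrogen receptor α (ERα) was assigned to one of these genes when its midpoint lay within 100 kb of any annotated transcription start site (TSS) of that gene. By this rule 18 of the 9607 peaks of replicate 1 and 16 of the 6819 peaks of replicate 2 belonged to the axis.

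The peaks came from ERα ChIP-seq, in which DNA bound by the receptor is recovered with an antibody and sequenced, on whole mammary glands (#4) of wild-type (WT) BALB/c female mice (BALB/cJ in the study's methods). Their ovaries were removed at 6 weeks of age, and after 10 days of rest they received 100 ng of 17β-estradiol under the skin, 2 h before the glands were taken. Each of the 2 replicates was a pool of glands from 6 mice, and 1 input library came from WT glands with the same treatment, with no peak list of its own used here. No vehicle-treated ChIP-seq library was analysed here, so the peaks describe where ERα was found after estradiol and not a change caused by it. A whole gland holds epithelial, stromal and fat cells, and the peak lists cannot tell in which of them a site was bound. They also hold no expression values, so the tissue label was not checked against marker genes. The lists give no read counts, so the depth behind a peak is unknown from them. The score of a peak rises as the p-value given by the MACS peak caller falls (read here as minus 10 log10 p), and the lists begin at a score of 80. With 2 pooled replicates no spread between animals can be estimated, and the replicate values are given side by side.

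IGF1 and IGF2 are secreted ligands that activate the receptor tyrosine kinase IGF1R. The activated receptor phosphorylates IRS1 and IRS2, docking proteins that carry the signal to the PI3-kinase and AKT pathway, while the IGFBP proteins bind the ligands in the extracellular space and control their access to the receptor. In the pubertal mammary gland, IGF1 made in response to growth hormone acts together with estrogen in ductal growth, and IGFBP5 is known for its rise during involution.

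Peaks of the replicates that overlapped by at least 1 bp were joined into sites, and a site with a peak in each list is called shared. The 9 genes had 19 sites, of which 15 were shared and 4 were found in only 1 list. The shared sites were spread unevenly: Igfbp6 had 5, Irs2 had 4, Igf1 had 3, Igf1r, Irs1 and Igfbp3 had 1 each, and Igf2, Igfbp2 and Igfbp5 had none. At least 1 shared site was found for 6 of the 9 genes (66.7%, exact 95% interval 29.9% to 92.5%). Of all protein-coding genes, 38.1% had one, a share within that interval. The interval covers counting error only and treats the genes as independent, although Igfbp2 and Igfbp5 are neighbours. A count of 3 or more was reached by 8.66% of protein-coding genes, 4 or more by 4.5%, and 5 or more by 2.37%. A peak of either list, shared or not, was present for the same 6 genes, and for 50.9% of protein-coding genes. The window was at most 224 kb for 8 of the 9 genes, whereas that of Igf1r was 396 kb because it has a second, internal TSS.

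**Figure D1:**
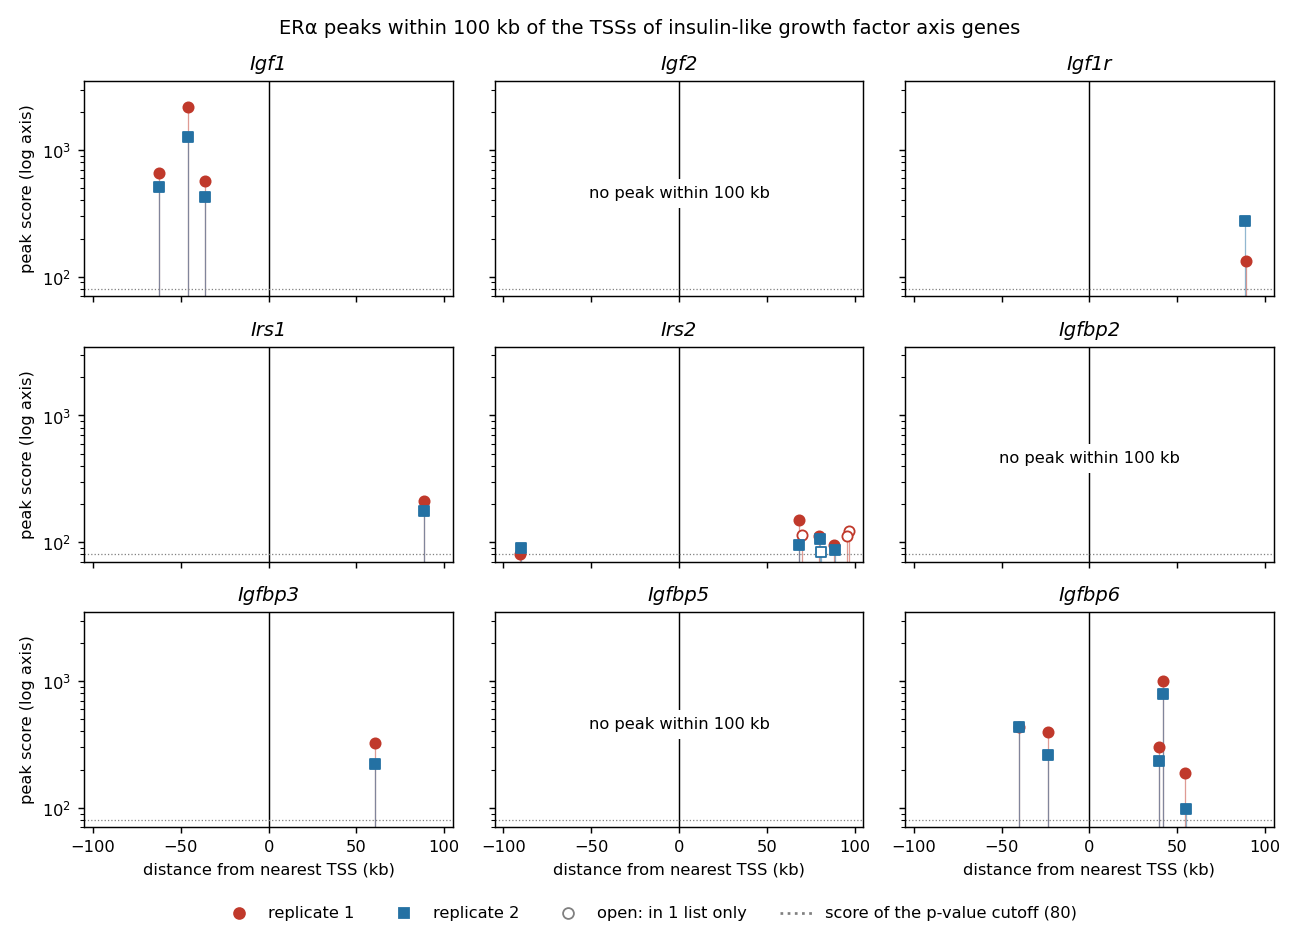
ERα peaks of the 9 genes, with the distance of each peak midpoint from the nearest TSS of the gene in kb on the x axis (negative is upstream, the vertical line is the TSS) and the peak score on a log y axis, for replicate 1 (circles) and replicate 2 (squares). Filled symbols are peaks shared by both lists and open symbols are peaks of 1 list. Igf1 has 3 shared sites, all upstream, Irs2 has many peaks close to the cutoff of 80, and Igf2, Igfbp2 and Igfbp5 have no peak in the window.

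The highest-scoring site lay at Igf1, and the strand printed is the plus strand of the mm9 reference in every case. The mice were of another strain than the reference, so the letters are those of the reference and not of the animals. An estrogen response element (ERE), the palindrome bound by ERα dimers, was searched as GGTCA, 3 free bases and TGACC. In addition, 4 consensus sequences of factors examined in the study were searched on both strands: AP1 (TGACTCA or TGAGTCA), SF1 (CAAGGTCA), PAX2 (GTCACG) and FOXA1 (TGTTTAC or TATTTAC). The SF1 sequence ends in the GGTCA of an ERE half-site, and PAX2 can share bases with it, so these matches are not independent of each other. Each site was searched in 400 bp around its midpoint. In the stretches below, capitals mark ERE matches with at most 2 mismatches and exact matches to the other motifs. They show the 3 Igf1 sites in order toward the gene, followed by the only site inside a gene of the axis.
Igf1, 62.5 kb upstream, chr10:87258399-87258698: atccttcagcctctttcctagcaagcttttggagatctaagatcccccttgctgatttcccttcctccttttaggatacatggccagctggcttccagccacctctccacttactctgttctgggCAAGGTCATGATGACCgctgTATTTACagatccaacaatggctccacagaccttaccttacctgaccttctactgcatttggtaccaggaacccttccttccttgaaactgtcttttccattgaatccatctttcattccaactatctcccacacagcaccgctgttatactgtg
Igf1, 45.8 kb upstream, chr10:87274982-87275281: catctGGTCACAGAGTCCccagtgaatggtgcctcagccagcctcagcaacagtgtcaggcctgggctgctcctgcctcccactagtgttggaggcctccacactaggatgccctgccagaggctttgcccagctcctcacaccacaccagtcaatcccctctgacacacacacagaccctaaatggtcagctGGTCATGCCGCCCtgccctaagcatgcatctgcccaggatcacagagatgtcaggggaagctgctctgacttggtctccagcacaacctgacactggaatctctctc
Igf1, 36.2 kb upstream, chr10:87284620-87284919: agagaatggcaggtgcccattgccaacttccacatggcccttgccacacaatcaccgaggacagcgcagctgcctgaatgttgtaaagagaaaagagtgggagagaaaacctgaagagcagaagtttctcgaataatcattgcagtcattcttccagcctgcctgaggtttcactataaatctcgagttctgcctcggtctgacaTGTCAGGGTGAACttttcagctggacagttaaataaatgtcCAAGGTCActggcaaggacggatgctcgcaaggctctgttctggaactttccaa
Igf1r, 88.8 kb downstream, chr7:75186412-75186711: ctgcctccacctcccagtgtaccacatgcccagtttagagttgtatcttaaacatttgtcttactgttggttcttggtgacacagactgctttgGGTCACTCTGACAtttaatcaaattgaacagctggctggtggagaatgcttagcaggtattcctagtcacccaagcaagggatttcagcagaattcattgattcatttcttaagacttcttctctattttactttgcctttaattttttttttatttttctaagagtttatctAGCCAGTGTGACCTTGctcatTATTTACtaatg

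The remaining stretches each show, in capitals, the best ERE match of a site. In order these are the strongest Igfbp6 site, the Igfbp3 site, the shared Irs2 site with the closest match, and the Irs1 site in the window. Last comes a stronger Irs1 site that lay outside the window.
Igfbp6, 42.1 kb downstream, chr15:102016917-102016945: agagagcaAGTCAGTGTGACCtgagaggg
Igfbp3, 60.7 kb downstream, chr11:7053238-7053266: tttagtcaGGTCACAGAGACAcgagatca
Irs2, 88.5 kb downstream, chr8:10919906-10919934: cccaaggcAGTCACAGTGACCctgaaaag
Irs1, 88.6 kb downstream, chr1:82199242-82199270: tgaccagtGTTCACCGTGATCagtgtccc
Irs1, 110.9 kb downstream, chr1:82177094-82177122: tatctgcaGGTCAGGATGCCCtttcataa

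Igf1 (ENSMUSG00000020053, plus strand, chr10:87321010-87399792), the ligand gene, had the highest-scoring ERα site of the axis among its 3 shared sites. The other two scored below the strongest Igfbp6 site in both replicates. All 3 sites were intergenic, all lay upstream, and all were present in both replicates. The site 45.8 kb upstream (chr10:87274758-87275564) had a score of 2203 in replicate 1 and 1269 in replicate 2, which placed it at rank 82 of 9607 and rank 193 of 6819. Ranked by the lower of the 2 scores, this site was 190 among the 6168 shared sites of the genome, in the top 3.08%. Among the protein-coding genes with a shared site in their window, 5.38% had one that scored as high or higher.

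The flanking Igf1 sites were weaker than the central one in both replicates. At 62.5 kb upstream (chr10:87258148-87258949) the scores were 654 and 507, and at 36.2 kb upstream (chr10:87284527-87285011) they were 571 and 425. The order of the 3 sites by score was the same in the replicates. Igf1 was the only protein-coding gene with a TSS within 100 kb of any of the 3 sites. The nearest TSS of any kind was that of Gm16176, a noncoding processed transcript on the opposite strand, at 32.6, 15.9 and 6.34 kb from the 3 sites. Beyond the window the next Igf1 site lay 138.8 kb downstream of the nearest TSS, past the 3′ end of the gene, with scores of 192 and 176.

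The sequences of the Igf1 sites did not follow the order of their scores. The site 62.5 kb upstream held the only ERE without mismatch found at the axis, GGTCATGATGACC at chr10:87258527-87258539, 15 bp from the site midpoint. A match to the SF1 consensus at chr10:87258524-87258531 overlapped this ERE by sharing its first half-site, and a FOXA1 match lay 1 bp from the midpoint. The central site, with the highest scores, had no ERE with at most 1 mismatch. Its closest matches had 2 mismatches each. They were GGTCACAGAGTCC (T9A and A11T), 168 bp from the midpoint, and GGTCATGCCGCCC (T9C and A11C), 20 bp from it. Positions are counted from 1 at the first base printed, and the consensus base comes first. Both matches keep the first GGTCA intact and differ from the consensus in the second half-site. Among the 190 shared sites of the genome that scored at least as high, 58.4% had an ERE with at most 1 mismatch (exact 95% interval 51.1% to 65.5%) and 83.7% one with at most 2. The site 36.2 kb upstream held TGTCAGGGTGAAC, with the mismatches G1T and C12A, and an SF1 match at chr10:87284866-87284873.

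Igf2 (ENSMUSG00000048583, minus strand, chr7:149836673-149852721), the second ligand, had no peak of either replicate within 100 kb of its 9 TSSs. The nearest peak in both lists was the same site, 375.6 kb upstream in an intron of R74862, with a replicate 1 score of 145 and a replicate 2 score of 118, and the nearest protein-coding TSS to it was that of Cd81. Of the protein-coding genes, 27.6% lay farther from a shared site than Igf2 did. The shared sites to the left and right of the gene were 1586 kb apart. Of the protein-coding genes without a shared site inside them, 34.2% lay in a stretch at least as long. The lists thus held 3 shared sites for one ligand gene and 0 for the other. The absence of peaks holds at the p-value of the lists and says nothing of weaker binding.

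The receptor gene Igf1r (ENSMUSG00000005533, plus strand, chr7:75097713-75371484) had 1 shared site, in its intron 88.8 kb downstream of its 5′ TSS (chr7:75186305-75186793). It was the only shared site of the axis for which a TSS of the gene itself was the nearest of any annotated gene. The score was 133 in replicate 1 (rank 5835) and 276 in replicate 2 (rank 1961), so the site was in the lower part of one list and the upper part of the other. The ratio of the scores, 0.482, was among the lowest of all shared sites, with 0.195% of them at or below it. The peak was 489 bp wide in replicate 1 and 724 bp in replicate 2. This region held GGTCACTCTGACA, an ERE with the single mismatch C13A, 37 bp from the midpoint. A second element with 2 mismatches, 136 bp from the midpoint, overlapped an SF1 match, and a FOXA1 match lay 154 bp from the midpoint. At 36.8% the GC content of the site was the lowest of the member sites, against a median of 48% for all shared sites. No other peak of either list lay within 100 kb of an Igf1r TSS, and the next was 292 kb away with scores of 427 and 279.

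Irs1 (ENSMUSG00000055980, minus strand, chr1:82229676-82287991), an adaptor that links the receptor to PI3-kinase, had 1 shared site in the window, intergenic and 88.6 kb downstream of its TSS (chr1:82199195-82199667). Its scores were 213 in replicate 1 and 177 in replicate 2, where the medians of all shared sites were 248 and 177. The nearest TSS to the site was that of the protein-coding gene Gm9747, at 30.3 kb. The region contained an SF1 match and an ERE-like sequence with 2 mismatches, G2T and C12T. The count for Irs1 changed more than that of any other member when the window was widened to 200 kb. A site 110.9 kb downstream (chr1:82176748-82177369) had scores of 1882 (rank 133) and 1533 (rank 112), a lower score above that of the strongest Igf1 site, and held an ERE with the single mismatch A11C. The nearest protein-coding TSS to the replicate 2 peak of this site was also that of Gm9747. Within 200 kb Irs1 had 4 shared sites in place of 1, the others at 131.9 kb downstream (scores 644 and 554) and 183.1 kb upstream (478 and 550). Just past the 100 kb limit there was also a peak of replicate 1 alone at 101.7 kb, with a score of 106.

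Irs2 (ENSMUSG00000038894, minus strand, chr8:10986980-11008458), the second adaptor, had the most peaks of the 9 genes and the weakest. Of its 8 sites, 4 were shared, 3 were peaks of replicate 1 alone and 1 was a peak of replicate 2 alone, so all 4 unshared sites of the axis were at this gene. The shared site 68.4 kb downstream had scores of 149 and 95.02. At 79.9 kb downstream the scores were 113 and 106, at 88.5 kb downstream 94.3 and 87.2, and at 90.2 kb upstream 80.7 and 89.2. The last of these was close to the cutoff in both lists, at rank 9528 of 9607 and rank 6150 of 6819. The unshared peaks scored between 83.8 and 121.5, the highest being the peak of replicate 1 alone at 96.9 kb, the outermost peak inside the limit.

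Of the 8 Irs2 sites, 7 were packed into a stretch downstream of the gene, from chr8:10911350 to 10940341, around the gene 3930402G23Rik, whose TSS was the nearest one for each of them. The shared site 79.9 kb from Irs2 was 76 bp from that TSS. No 16-base word was shared by the 400 bp windows of any pair of the 8 sites, a check added after their values were seen. One shared site, 88.5 kb downstream, held an ERE with a single mismatch (G1A) and the only AP1 match of the axis, and the peak of replicate 1 alone 69959 bp downstream held GGTGACACTGACC, with the single mismatch C4G. The Irs2 count rested on weak peaks. With a score of at least 100 required in both lists, 1 of its 4 shared sites remained, and with at least 200 none did. Taking the peaks of replicate 1 alone, Irs2 had 7 sites in place of 4. The cutoff of 200 also removed the single shared sites of Igf1r and Irs1.

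Of the 5 shared adaptor sites within 100 kb, 4 were at Irs2 and 1 at Irs1. Their lower scores ranged from 80.7 to 177, with a median of 95.02, and the highest was that of Irs1. The lower scores of the 3 Igf1 sites ranged from 425 to 1269. For all shared sites the quartiles of the lower score were 111 and 331. Since 4 of the 5 adaptor sites belong to 1 gene, no contrast between adaptors and ligand was drawn. Within 200 kb the further Irs1 sites had lower scores of 478 to 1533. For the 6 shared sites of the binding proteins the lower scores ran from 98.2 to 794.

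**Figure D2:**
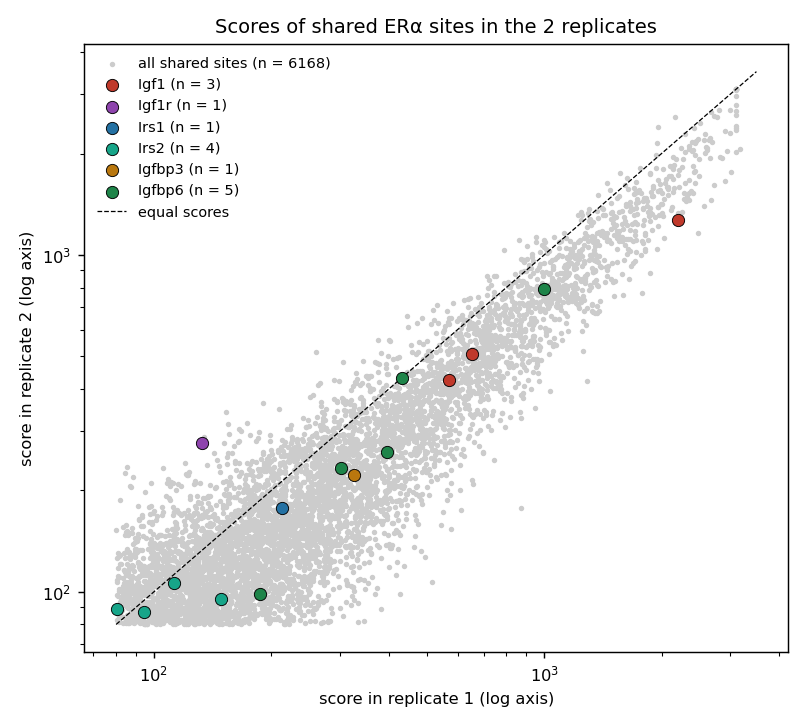
Score of each shared site in replicate 1 (x) and replicate 2 (y), both on log axes, for all 6168 shared sites (grey) and the 15 sites of the axis (coloured by gene); the dashed line marks equal scores. The strongest Igf1 site reaches 2203 and 1269, the 4 Irs2 sites lie near the lower limit of the lists, and the Igf1r site stands above the line.

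Among the binding proteins, Igfbp6 (ENSMUSG00000023046, plus strand, chr15:101974793-101979942), which binds IGF2 preferentially, had 5 shared sites and no unshared peak. The strongest, 42.1 kb downstream (chr15:102016574-102017210), scored 999 in replicate 1 (rank 535) and 794 in replicate 2 (rank 486). Its midpoint was in a coding exon of Csad, and it held AGTCAGTGTGACC, an ERE with the single mismatch G1A, 39 bp from the midpoint. Another site lay 39.4 kb downstream in an intron of Csad, with scores of 302 and 233. Upstream of the gene, the site at 40.1 kb had nearly equal scores of 433 and 430 and was in an intron of Tenc1, and the site at 23.6 kb, in an intron of Spryd3, had scores of 397 and 260. The weakest, 54.7 kb downstream and intergenic, scored 187 and 98.2. It was the only one of the 5 with a score under 200 in either list.

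The neighbourhood of Igfbp6 is dense in genes, and none of its 5 sites had Igfbp6 as the nearest gene. Between 8 and 10 protein-coding genes had a TSS within 100 kb of each site, so the list assigns the same sites to Csad, Spryd3, Tenc1 and others. The epithelial keratin genes Krt8 and Krt18 shared the site at 40.1 kb, and Krt18 also that at 23.6 kb. Beyond the window on the same side, a stronger site 167.9 kb upstream, nearest to Krt78, scored 1585 and 876. Only the Csad exon site had an ERE with at most 1 mismatch, and AP1, SF1, PAX2 and FOXA1 sequences were found in none of the 5 windows.

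Igfbp3 (ENSMUSG00000020427, minus strand, chr11:7106089-7113926), the main carrier of IGFs in serum, had 1 shared site 60.7 kb downstream (chr11:7052942-7053457). Its scores were 327 in replicate 1 and 223 in replicate 2, above the medians of all shared sites. It lay in an intron of Adcy1, whose TSS was the nearest at 6.69 kb, and its closest ERE match, GGTCACAGAGACA, had the mismatches T9A and C13A. The same site was 44.6 kb upstream of Igfbp1, the neighbouring binding protein gene, which was singled out after its values were seen. No further peak lay within 488 kb of an Igfbp3 TSS.

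Igfbp2 (ENSMUSG00000039323, plus strand, chr1:72871077-72899048) and Igfbp5 (ENSMUSG00000026185, minus strand, chr1:72904506-72921458) are neighbours, and neither had a peak within 100 kb in either replicate. The nearest peak to both was one of replicate 1 alone, with a score of 112, intergenic at 142.9 kb from an Igfbp2 TSS and 116.8 kb from an Igfbp5 TSS. In replicate 2 the nearest was a shared site with a score of 115 (147 in replicate 1), at 270.1 kb from Igfbp2 and 244 kb from Igfbp5. The pair lies in a stretch of 974 kb without a shared site, and 49.3% of protein-coding genes without a shared site inside them lie in a stretch at least as long. Both distances to this site were above the median of 159.6 kb over protein-coding genes. The count of Igf2, Igfbp2 and Igfbp5 stayed at 0 when the score, overlap, TSS set or window (50 or 200 kb) was changed one at a time, and with either replicate alone.

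**Figure D3:**
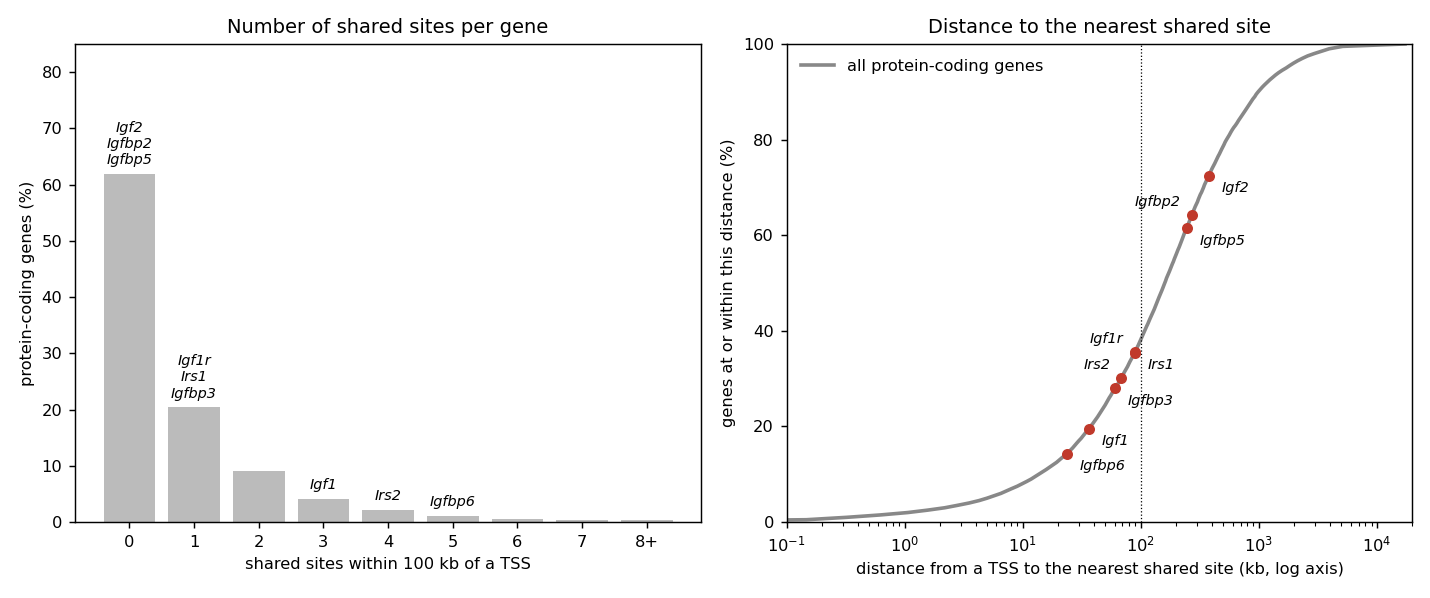
Left, share of protein-coding genes (%, bars) by the number of shared sites within 100 kb of a TSS, with the 9 genes written above their count; right, share of protein-coding genes (%) at or within a given distance in kb (log axis) of the nearest shared site, with the 9 genes as points and the 100 kb limit dotted. Igfbp6, Irs2 and Igf1 are in the upper tail of the counts (2.37%, 4.5% and 8.66% of genes have as many or more), and Igf2 is the farthest from a site at 375.6 kb.

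Within the window that the rule set, the distances of the 15 shared sites ran from 23.6 to 90.2 kb, with a median of 60.7 kb. A proximal shared site (1 kb upstream to 400 bp downstream of a TSS) was found at 0 of the 9 genes and at 1.58% of all protein-coding genes, a share too small to read anything from that 0. By position, 9 were intergenic, 5 lay in introns and 1 in a coding exon, and only the Igf1r site was inside a gene of the axis. Counting protein-coding genes alone, the member was the nearest gene for 5 of the 15 sites, the 3 of Igf1, the 1 of Igf1r and the upstream one of Irs2. No share over all shared sites was set beside these counts of position and nearest gene, so whether they are usual was not tested.

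Most of the peaks were found in both replicates. Of the 18 peaks of replicate 1, 15 were shared (83.3%, exact 95% interval 58.6% to 96.4%), where 64.9% of the whole list was. Of the 16 peaks of replicate 2, 15 were shared (93.8%, 69.8% to 99.8%), where 90.6% of the whole list was. Both intervals hold the value for the whole list. These intervals cover counting error only. The replicate 1 score was the higher one at 13 of the 15 sites, and at 80.9% of all shared sites. The exceptions were the Igf1r site and the upstream Irs2 site. The median of the lower scores was 223 for the 15 sites and 169 for all shared sites (quartiles 111 and 331), and 9 of the 15 were above that median.

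An ERE with at most 1 mismatch was found in 4 of the 15 shared sites (26.7%, exact 95% interval 7.79% to 55.1%), 1 each at Igf1, Igf1r, Irs2 and Igfbp6, and in 31.2% of all shared sites. Without mismatch the counts were 1 of 15 and 6.65%, and with at most 2 mismatches 11 of 15 and 67.3%. SF1 was present in 4 of the 15 (26.7%, 7.79% to 55.1%) and in 9.45% of all shared sites, a share within the interval, and these 4 were at Igf1, Igf1r and Irs1. Of the 4 SF1 matches, 2 overlapped an ERE match, as printed above for the distal Igf1 site and the Igf1r site. FOXA1 was present in 2 of the 15 (14% of all shared sites), AP1 in 1 (16.6%) and PAX2 in 1 (9.15%). None of the 5 motifs was found in 8 of the 15 windows, against 41.0% of all shared sites. A missing match says only that these letters are not in the window.

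**Figure D4:**
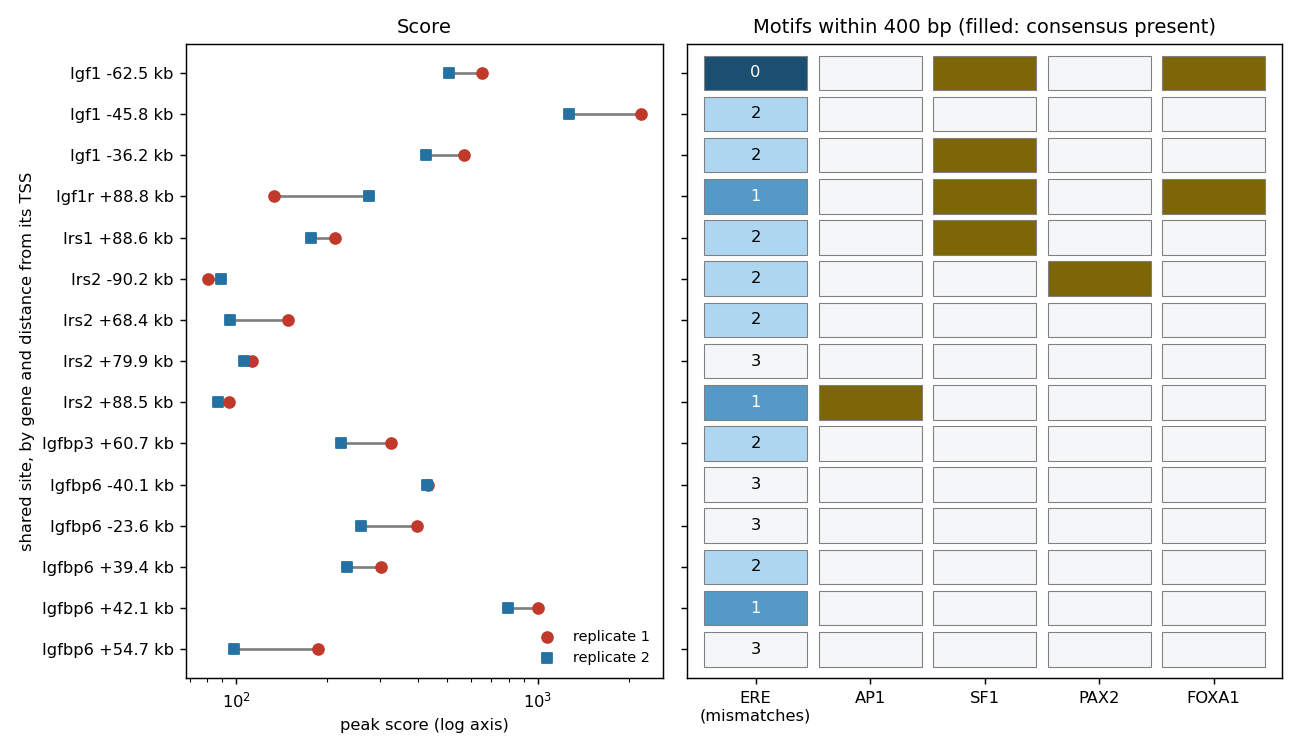
The 15 shared sites by gene and distance from its TSS in kb, with the scores in replicate 1 and replicate 2 on a log axis (left) and the motifs found in 400 bp around the midpoint (right). The ERE column gives the fewest mismatches (0 to 3) and filled cells mark an exact match to another motif. The 0-mismatch ERE is at the Igf1 site 62.5 kb upstream, while the highest-scoring site, 45.8 kb upstream, has 2 mismatches and no other motif.

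Beyond the 9 genes, 41 other genes of insulin and IGF signalling were examined, among them the insulin genes and receptors, further binding proteins, the proteases that cleave them, and the PI3-kinase, AKT and mTOR branch. Of these, 21 had a shared site within 100 kb (51.2%, exact 95% interval 35.1% to 67.1%), where 38.1% of all protein-coding genes did. Sites were assigned to these genes by the window alone, and the gene nearest to each site was not determined. The highest-scoring site was near Grb2, an adaptor of the RAS pathway, 67.5 kb upstream (chr11:115636749-115638035). It had scores of 2381 and 1552 and held an ERE with 1 mismatch. Pappa2, a protease that cleaves IGFBP5, had a site 39.2 kb downstream with scores of 1109 and 882. Near Ghr, the growth hormone receptor, a site 19.3 kb downstream scored 692 and 574. Pik3r1, the regulatory subunit of PI3-kinase, had 5 shared sites, the strongest 2.36 kb downstream of a TSS with scores of 871 and 536. A site 37.1 kb upstream of Stc1, an inhibitor of the pappalysin proteases, scored 618 and 527 and held an ERE without mismatch. Igfbp4 had 4 shared sites, the strongest 89.6 kb upstream with scores of 430 and 316. Insr had 1 shared site, with scores of 248 and 151, and Ins1 and Ins2 had none. Insr, Ins1 and Ins2 were named after their values were seen.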

How the data were processed

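ERα ChIP-seq of 2 pooled replicates was analysed. The input has no peak list here, and how it entered peak calling was not given in the sources used here. Per the study's methods and the labels, reads of 51 nt were mapped by the authors with BWA (assembly mm9), and MACS then listed the peaks of each replicate separately, with a p-value cutoff of 1e-08. The version of MACS was not given in the sources used here. The deposited score was read as minus 10 log10 p, since both lists begin just above 80, and the depth behind it is unknown.

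Peaks overlapping by at least 1 bp were joined into sites. A site belonged to a gene when a peak midpoint was within 100 kb of a TSS of any transcript of the gene (GENCODE version 1, Ensembl 65, NCBIM37, the assembly of mm9), and distances were measured from the midpoint of the interval covered by both peaks. No peak ran past a chromosome end. Unplaced sequences (9 and 7 peaks) were left out of the motif search. Motifs were searched in the reference.

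The members and lists were chosen with earlier results of these data known, so no test was run. Shares have exact Clopper-Pearson 95% intervals. All shared sites of the 9 genes within 100 kb are named, and of the other pathway genes the 6 with the highest lower score. Unshared peaks are given by count and score range, and only some of them are named. Overlaps, distances and EREs planted in simulated data were recovered. Alternatives were other score cutoffs, overlaps, TSS sets, windows and motif settings, and each replicate alone. Analyses used pandas 2.3.3 and numpy 2.4.6 under Python 3.11.15, with scipy 1.17.1 for intervals, pysam 0.24.0 for sequence and matplotlib 3.10.9 for plots.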

Additional observations from a re-analysis of the deposited data

How the results depend on the processing

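Score cutoff, window, TSS set, the mismatches allowed in an ERE and, for Irs2, the replicates used moved the values. With scores of at least 200 in both lists, 8 shared sites at 3 genes remained, their median lower score was 427, none was nearest to a member (0), and 9 other pathway genes had a shared site. With scores of at least 100, 11 sites at 6 genes remained. All replicate 2 peaks were then shared (100%), but the share of replicate 1 peaks fell from 83.3% to 68.75%. Within 50 kb there were 6 shared sites at 2 genes, with a median lower score of 427, 0 nearest to a member and 100% of the peaks of each list shared. Within 200 kb, 63.6% of the replicate 1 peaks and 87.5% of the replicate 2 peaks were shared. The number of sites nearest to a member rose from 1 to 4 when only the outermost 5′ TSS per gene was kept and to 5 with TSSs of protein-coding transcripts. The share of sites with an ERE was 6.67% without mismatch and 73.3% with at most 2. Reciprocal 50% overlap and midpoints within 100 bp left all these values as they were. Without replicate 1 or replicate 2 the number of sites was 16 to 18, the number of genes 6 and the ERE share 25% to 27.8%. The Irs2 count, 4 with both lists, was 5 without replicate 1 and 7 without replicate 2. Of the 80 values recomputed for the main results, 64 stayed close and 16 moved as given here. A share was called close if it stayed inside the exact interval of its main value. These intervals are wide, so the 63.6% of replicate 1 peaks within 200 kb counted as close to 83.3%. Counts also had room to shift, and 21 shared sites within 200 kb counted as close to 15. No paired analysis was possible because there is 1 group of ChIP samples and no test between groups. The lists hold no reads, so depth could not be weighed, and a gene without a peak may have binding below the cutoff.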

Other observations

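Between 100 and 200 kb from a TSS, 6 further shared sites were found, 3 of them at Irs1 and 1 each at Igf1, Igfbp6 and Irs2. The Irs2 site, 192 kb downstream of the TSS, scored 462 in replicate 1 and 198 in replicate 2, both values higher than those of any Irs2 site inside the 100 kb window.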
